A study of Mus musculus with 9 samples.

Results

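MLP29 is a mouse cell line of liver progenitors, cells that can give rise to hepatocytes and to the cells lining bile ducts. The cells described here were untreated and starved in 0.1% serum for at least 16 h, and 3 arrays of the 9 in the series hold their RNA, 1 from each of 3 experiments. The other 6 arrays hold starved MLP29 cells of the same experiments given HGF/SF1, hepatocyte growth factor, at 20 ng/ml (3 arrays) or the α5β1 integrin-blocking antibody clone BMB5 at 10 µg/ml (3 arrays), and were used only to see whether differences between experiments recurred in other dishes. All arrays hold the same line, with no genetic change named, grown in RPMI medium before starvation, so the untreated state is that of starved cells, and fed cells and primary hepatocytes are not analysed here. The 3 experiments are told apart by the day in their labels, which do not say whether it marks culture, RNA or array, and they are called experiments 1, 2 and 3, a name and not an order.

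Liver progenitors are usually known by simple keratins, by surface proteins such as Epcam and Prom1, by the duct factor Sox9 and, in the fetal liver, by alpha-fetoprotein. Hepatocytes secrete albumin, apolipoproteins and clotting factors and carry the enzymes of urea synthesis and drug metabolism, while bile duct cells carry Krt7, Krt19 and the chloride channel Cftr. Hepatocyte growth factor acts through the receptor Met, and integrins are pairs of an alpha and a beta subunit that bind matrix proteins outside the cell. Cells without serum slow their division cycle, and cells short of sterols raise the enzymes of cholesterol synthesis through the factor Srebf2.

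Each value is a log2 level, the authors' summary of the probes of 1 probe set, and a difference of 1 between arrays is a 2-fold difference. For each of 12393 genes the brightest probe set naming that gene alone was used, and values stand in the order of experiments 1, 2 and 3. Brightness depends on the probes as well as on the RNA, so the order of genes by level describes the array and is not an order of transcript numbers. The mean level had a median of 6.57 over genes, a lower quartile of 4.09 and an upper quartile of 8.59. As a scale for dim signals, 45 genes of organs outside the liver, such as retina, heart and testis, had a median of 3.83 and a 95th percentile of 5.41. A level is called above the reference where it passed 5.41, which 7265 genes (58.6%) did. Of the 45 genes themselves 3 passed it, 1 of them the myelin gene Mbp at 9.04, so passing it does not show that a gene is in use.

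The 3 untreated arrays had medians of 5.98, 5.97 and 6.08 and resembled each other closely across genes, with Pearson's r of 0.992 for experiments 1 and 2, 0.985 for 1 and 3 and 0.989 for 2 and 3, descriptions over genes that are not independent. The 3′ minus 5′ signal of β-actin, a sign of RNA shortening or incomplete copying, was 0.227, 0.873 and 0.197, higher in experiment 2, while that of Gapdh was -0.318, -0.0618 and -0.164.

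The brightest genes of resting MLP29 cells were those of translation, the simple epithelial keratins and small cytoskeletal and calcium-binding proteins. Rpl41, a small ribosomal protein, led with 14.28, 14.21 and 14.17, and the elongation factor Eef1a1 followed at a mean of 14.08. Of the 30 brightest genes, all with means of at least 13.52, 18 encode ribosomal proteins. Krt18, a type I keratin of simple epithelia, had a mean of 14.04 ± 0.05 (SD, n = 3), and its partner Krt8 had 13.79, 13.91 and 13.87. The highest and the lowest array differed by 0.10 for Krt18 and by 0.12 for Krt8. The group also held Tpt1 (14.04), a growth-related protein, the galectins Lgals3 (13.94) and Lgals1 (13.83), Tmsb10 (13.96), which binds actin monomers, and S100a6 (13.87), which binds calcium. Actb, cytoplasmic actin, had 13.86, 13.26 and 13.94, with an SD of 0.37 the highest among the 30, whose median SD was 0.06. The mesenchymal filament protein vimentin (Vim) had 13.47, 13.61 and 13.66.

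Of the markers that name the line, the keratins were bright and the fetal and adult liver products were dim. Krt19, the keratin of bile ducts and progenitors, had 13.29, 13.61 and 13.30. Met, the HGF receptor, had 9.83, 9.10 and 9.63, a mean of 9.52 ± 0.38 (SD, n = 3), and was lowest in experiment 2. Alb, serum albumin, had 4.02, 4.34 and 3.89, and Afp, alpha-fetoprotein, had 4.09, 4.09 and 4.09. Both were under 5.41 on every array. The 5 probe sets of Afp had means from 3.47 to 4.09, so no probe set read it above the reference. The 3 values of the probe set used were equal, as were those of 68 genes, 58 of them no brighter than the reference, so its SD of 0 is no measure of error.

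**Figure D1:**
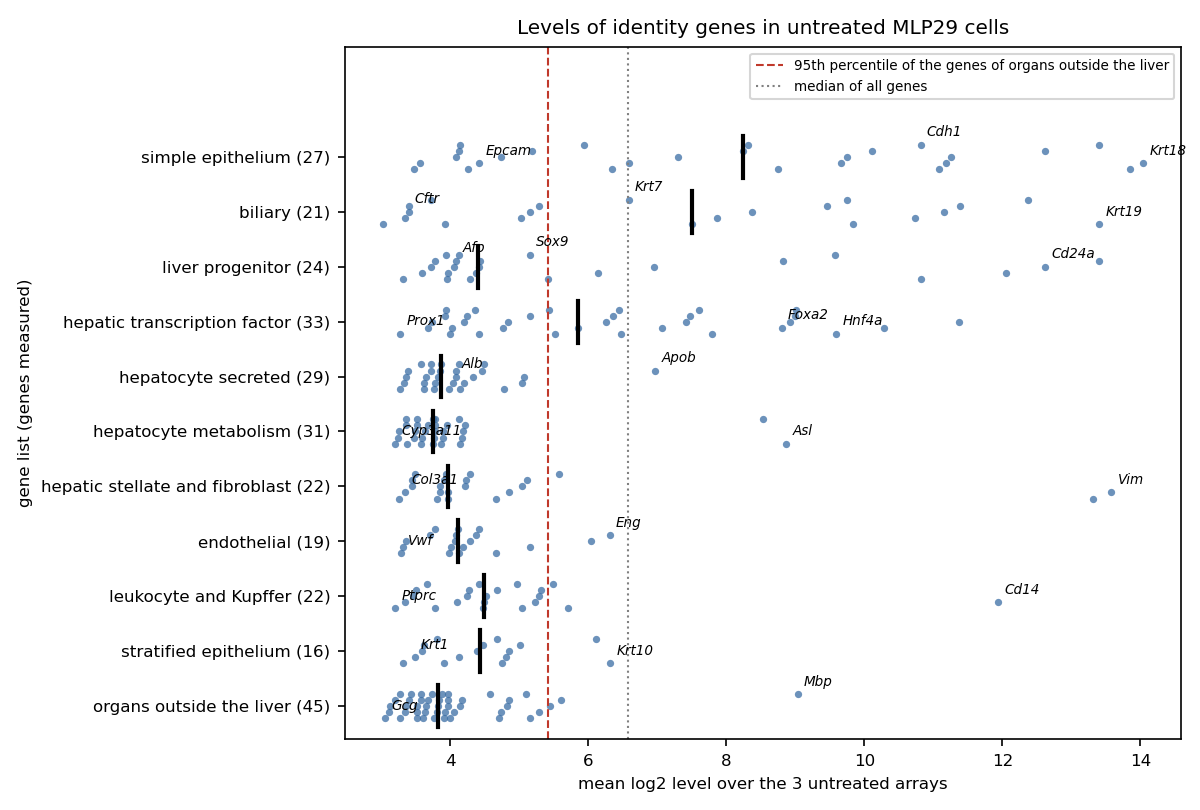
Mean log2 level over the 3 untreated arrays, 1 point per gene, in lists of identity genes, with a black bar at each list's median, a dashed line at 5.41, the 95th percentile of the genes of organs outside the liver, and a dotted line at 6.57, the median of all genes. Simple epithelial and biliary genes reach past 13 with Krt18 and Krt19, while all but 1 of the hepatocyte secreted genes lie left of the dashed line.

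Of 27 simple epithelial genes measured, 18 passed the reference, against 58.6% of all genes, with a median level of 8.24. The list was uneven, and 11 of the 27 lay no higher than the median gene. Cdh1, E-cadherin of cell junctions, had 10.66, 11.15 and 10.63. The intestinal and bladder keratin Krt20 had 11.66, 10.87 and 10.73 and the tight junction protein Tjp1 had 11.22, 11.31 and 11.26. Epcam, an adhesion protein used to sort epithelial progenitors, had 4.32, 4.60 and 4.35, below the reference on all 3 arrays. Genes of stratified epithelium were dim: 2 of 16 passed, with a median of 4.44.

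The liver progenitor list was split. Of 24 measured genes 9 passed the reference and the median was 4.40. Bright members were Krt19, the adhesion proteins Cd24a (12.56, 12.70 and 12.60) and Cd44 (11.60, 12.19 and 12.38) and the chromatin protein Hmga2 (10.10, 8.64 and 9.99), which is known from fetal cells. The adhesion protein Ncam1 had 8.91, 8.90 and 8.66. Dim members were Prom1 (4.45, 4.20 and 4.48), Dlk1 (3.98, 4.10 and 4.09), a surface protein of hepatoblasts, and Lgr5 (3.79, 3.71 and 3.83), a receptor of Wnt-responding stem cells. Sox9 had 4.86, 4.83 and 5.76, above the reference only in experiment 3. Its second probe set had 3.60, 3.53 and 4.18, under the reference on every array.

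Of 21 biliary genes 12 passed the reference, near the 58.6% of all genes, with a median of 7.50. They included clusterin, Clu (12.24, 12.40 and 12.48), the membrane linker ezrin, Ezr (11.28, 11.47 and 11.42), Sox4 (10.75, 10.95 and 11.74) and carbonic anhydrase Car2 (10.97, 10.41 and 10.82). Krt7 had 6.64, 6.87 and 6.26. Cftr, the duct chloride channel, had 3.40, 3.40 and 3.40, and the factor Onecut1 had 3.87, 4.02 and 3.92, both below the reference.

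Hepatocyte products were dim nearly throughout. Of 29 secreted proteins 1 passed the reference, Apob, the protein of very low-density lipoprotein, with 7.19, 7.90 and 5.82. Ttr, transthyretin, had 5.19, 5.23 and 4.79 and Apoa1 had 5.33, 4.86 and 4.96, both under it. Of 31 enzymes and transporters of hepatocyte metabolism 2 passed, Asl (8.84, 9.01 and 8.77), an enzyme of the urea cycle, and Glul (8.31, 9.10 and 8.21), glutamine synthetase, both also used by many other cells. Cps1, the first enzyme of urea synthesis, had 3.61, 3.51 and 3.43, and the cytochrome Cyp2e1 had 3.70, 3.73 and 3.93. The medians of the 2 lists, 3.87 and 3.76, lay close to the 3.83 of the reference genes.

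Of 33 transcription factors of liver 19 passed the reference, near the 58.6% of all genes, with a median of 5.86, below the median gene. Hnf4a, the nuclear receptor at the centre of the hepatocyte programme, had 10.00, 9.93 and 8.85, with experiment 3 lowest. Its 4 probe sets had means from 6.90 to 9.60, 3 of them lowest in experiment 3 and 1 in experiment 2. Foxa2, a factor that opens liver chromatin, had 9.38, 9.0 and 8.04, also lowest in experiment 3. Foxa1 had 7.65, 7.53 and 7.65, Gata6 7.69, 7.60 and 8.11 and Hhex, a factor of the liver bud, 7.10, 8.01 and 7.13. The brightest were Xbp1 (11.30, 11.42 and 11.41), a factor of secretory cells, and Cebpb (10.06, 9.92 and 10.90). Cebpa, a factor of mature hepatocytes, had 5.64, 6.72 and 6.42 and Prox1 had 3.42, 3.19 and 3.22.

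Markers of other liver cell types were mostly below the reference, with medians of 3.97 for stellate cells and fibroblasts, 4.11 for endothelium and 4.49 for leukocytes. Of 22 stellate cell and fibroblast genes 3 passed, Vim, S100a4 (13.30, 13.34 and 13.30) and the muscle filament protein desmin, Des (5.68, 5.63 and 5.43), and the collagens Col1a1 (3.85) and Col3a1 (3.35) did not. Of 19 endothelial genes 2 passed, Eng (6.31) and Flt1 (6.04), while Pecam1, a surface protein of endothelium, had 3.71 and the VEGF receptor Kdr had 4.02. Of 22 leukocyte and Kupffer cell genes 3 passed. They were Cd14, the co-receptor for bacterial lipopolysaccharide, with 11.95, 12.18 and 11.68, the factor Spi1 (5.71) and the lysosomal protein Cd68. The pan-leukocyte gene Ptprc had 3.20 and the macrophage gene Adgre1 4.25, both under the reference. Cd68 had 5.12, 5.20 and 6.17 and Cdh5, a junction protein of endothelium, had 4.59, 4.88 and 6.00, both highest in experiment 3. An array of a whole culture cannot tell more cells of a type from more RNA per cell, here or in any result that follows.

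MLP29 cells are studied for their answer to HGF. The members of its receptor pathway were mostly above the reference, 25 of 31, against 58.6% of all genes. Besides Met, they included the adaptor Crk (10.62, 10.66 and 11.04), the phosphatase Ptpn11 (9.65, 9.39 and 9.55) and the GTPase Rac1 (11.98, 12.17 and 11.98), which drives membrane ruffles. The ligand Hgf itself had 3.94, 4.09 and 3.92, under the reference on every array. Spint2, an inhibitor of the proteases that activate HGF, had 10.73, 11.20 and 11.63. The related receptor Mst1r had 7.75, 7.72 and 8.14.

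Of 46 receptor tyrosine kinases 19 passed the reference, a share below the 58.6% of all genes, with a median of 4.78. Axl, the receptor for Gas6, was the brightest of them with 11.53, 11.72 and 11.64, followed by the collagen receptor Ddr1 (9.28, 9.90 and 9.84), Met and the Wnt co-receptor Ryk (9.17, 9.45 and 9.32). Egfr, the receptor for epidermal growth factor, had 7.75, 8.22 and 8.26 and Epha2 had 7.71, 8.13 and 8.53. Erbb3, a receptor for neuregulins, had 8.14, 6.79 and 6.81 and was highest in experiment 1. Erbb4 had 3.22, 3.29 and 3.29.

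Of 21 integrin subunits 12 passed the reference, near the 58.6% of all genes. The brightest were Itgb7 (10.53, 10.33 and 11.04), known from lymphocytes, Itga6 (10.33, 10.24 and 10.62), a laminin-binding subunit, and Itgav (10.08, 10.44 and 10.55). Itgb1, the common beta subunit, had 9.70, 9.66 and 10.19. Its partner in the fibronectin receptor, Itga5, had 6.86, 7.07 and 7.81, highest in experiment 3, and the blocking antibody of the study binds this pair. Itgb6, an epithelial subunit that pairs with Itgav, had 5.78, 6.28 and 8.11, again highest in experiment 3, and its second probe set had 4.79, 5.70 and 7.07. Itga4 (3.57) and Itga8 (3.19) were under the reference. Among the matrix ligands, Lamb3, a laminin chain, had 11.24, 11.36 and 11.54, Col4a1 of basement membranes had 9.68, 10.08 and 10.35 and fibronectin, Fn1, had 7.71, 9.35 and 8.33, lowest in experiment 1. The second probe set of Fn1 was under the reference, with 3.52, 3.45 and 3.52.

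**Figure D2:**
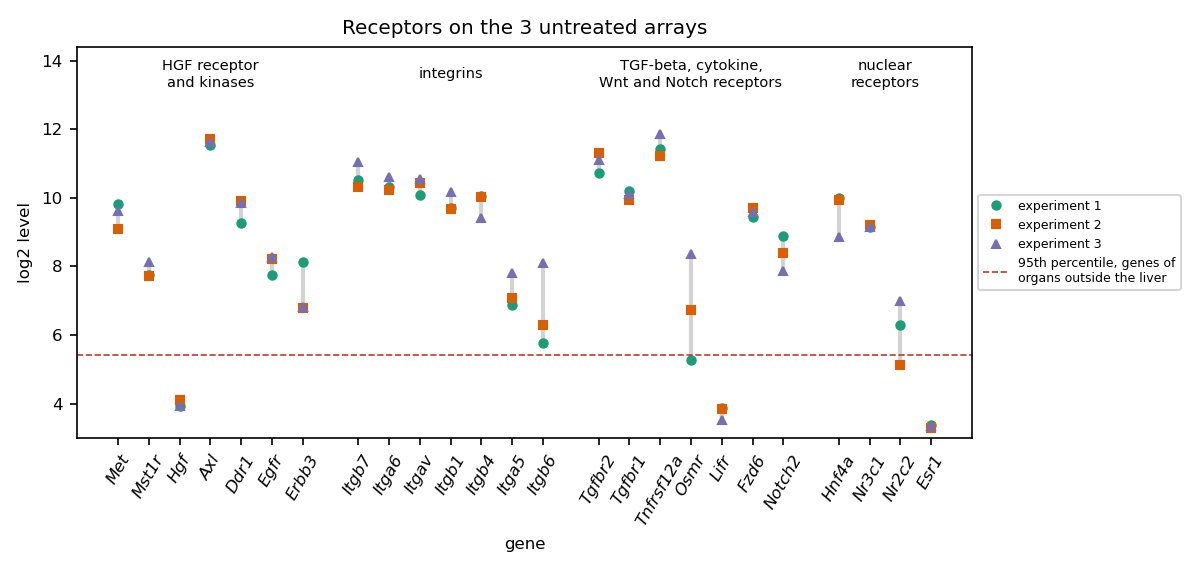
Log2 level of receptors, integrin subunits and the ligand Hgf on the 3 untreated arrays, with a marker for each experiment and a grey bar from the lowest to the highest. Met lies between 9.10 and 9.83 and Hgf near 4, and Itgb6 and Osmr have the widest spread among those drawn, both highest in experiment 3.

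Receptors of other families passed the reference in shares near or below the 58.6% of all genes, the cytokine receptors slightly above it. Tgfbr2 had 10.73, 11.31 and 11.11 and Tgfbr1 had 10.21, 9.95 and 10.10, the pair that binds TGF-beta. Of 30 cytokine receptors 20 passed the reference, led by Tnfrsf12a (11.44, 11.22 and 11.86), the TWEAK receptor known from liver progenitors. Osmr, the receptor for oncostatin M, had 5.28, 6.72 and 8.35, highest in experiment 3, and its second probe set had 3.87, 4.41 and 6.15, in the same order. Lifr, which shares the partner chain of Osmr, had 3.87, 3.83 and 3.53. Of 19 Notch, Wnt and Hedgehog receptors 9 passed, among them Fzd6 (9.44, 9.69 and 9.59), Smo (8.90, 9.0 and 8.40) and Notch2 (8.88, 8.38 and 7.86), a receptor needed for bile ducts, which was lowest in experiment 3. Of 36 nuclear receptors 21 passed, with the glucocorticoid receptor Nr3c1 at 9.16, 9.20 and 9.16 and the oestrogen receptor Esr1 at 3.39, 3.28 and 3.34. The orphan receptor Nr2c2 had 6.28, 5.13 and 6.99, lowest in experiment 2.

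Genes of translation, the cytoskeleton and respiration were bright. All 42 measured ribosomal protein genes passed the reference, with a median level of 13.38 and a median range of 0.108 between the highest and lowest untreated array, against 0.304 over all genes. The 33 translation factors had a median of 11.78, the 38 cytoskeletal genes 11.16 and the 68 genes of oxidative phosphorylation 11.15, with median ranges of 0.210, 0.360 and 0.315. Of these 68 genes 55 were lowest in experiment 3, by small amounts, against 41.3% of all genes, and 1 had a range of at least 1. The 19 glycolytic genes had a median of 9.62, with 5 at a range of at least 1.

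Across the 3 untreated arrays, 611 of 12393 genes (4.93%) had a range of at least 1, a 2-fold difference between the highest and the lowest experiment. With 1 array per experiment there is no replicate within an experiment, so the range is given with no test, and differences of culture, RNA and array cannot be told apart. Low levels rarely reached it, with 5 genes (0.161%) among the genes below the lower quartile of level and 180 (5.81%) between it and the median, 257 (8.30%) between the median and the upper quartile and 169 (5.45%) above it. Experiment 3 stood farthest from the others. It was the lowest in 267 of the 611 genes (2.15% of all genes) and the highest in 261 (2.11%), and experiment 2 was the lowest in 138 (1.11%). The most frequent order was highest in experiment 1 and lowest in 3, in 178 genes, and then the opposite, in 159. Without experiment 3 the count was 158, and without experiment 1 it was 316.

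The spread was uneven over gene groups. A range of at least 1 was reached by 33 of 44 mitosis genes, 15 of 21 cholesterol synthesis genes, 18 of 38 genes of chemokines and inflammation, 13 of 33 hypoxia genes, 12 of 40 genes of glutathione and oxidative stress, 10 of 36 S phase genes and 7 of 35 immediate early genes. It was reached by none of 33 translation factors and 1 of 42 ribosomal protein genes. None of 31 hepatocyte enzymes reached it, but 29 of them lie below the median gene, where low levels rarely do. Without experiment 3 the count was 1 for mitosis, 1 for cholesterol synthesis, 1 for S phase, 7 for inflammation, 7 for hypoxia and 4 for immediate early genes. Without experiment 1 it was 16 for mitosis, 1 for S phase, 2 for hypoxia and 4 for immediate early genes, and without experiment 2 it was 8 for hypoxia.

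**Figure D3:**
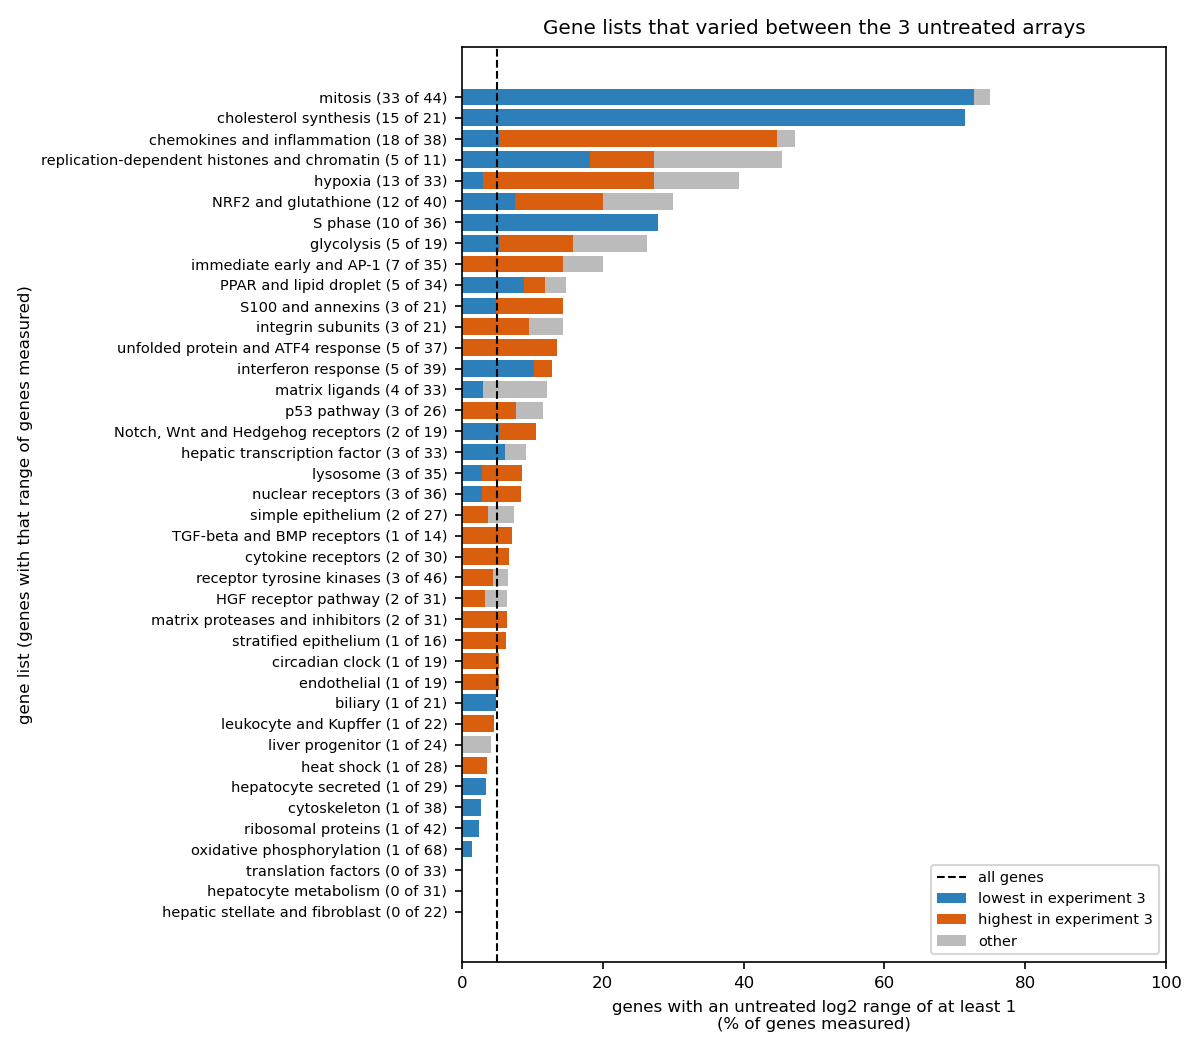
Percent of the measured genes of each list, the genes of other organs left out, whose highest and lowest untreated array differed by at least 1 on the log2 scale, with the part lowest in experiment 3 in blue, highest in experiment 3 in orange and others in grey. The dashed line marks the 4.93% of all genes, which the mitosis (33 of 44) and cholesterol synthesis (15 of 21) lists exceed the most.

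Cholesterol synthesis runs from acetyl-CoA over mevalonate and squalene to sterols, and its genes were lowest together in experiment 3. Of 21 measured genes 20 had their lowest level there, all but the sterol sensor partner Scap, and 19 were highest in experiment 1 and lowest in 3, an order seen in 22.8% of all genes. The median difference of experiment 3 from experiment 1 was -1.88. Hmgcs1, which makes HMG-CoA for the mevalonate route, had 12.45, 11.55 and 9.77, and all 4 of its probe sets shared this order. Idi1, which interconverts isoprene units, had 10.69, 9.90 and 7.93, and Mvd, the mevalonate decarboxylase, had 9.39, 8.74 and 6.65. Experiment 3 differed from experiment 1 by -2.68 in Hmgcs1, -2.76 in Idi1 and -2.74 in Mvd. Fdps, which makes farnesyl diphosphate, had 13.08, 12.46 and 11.08, and the late sterol enzyme Nsdhl had 11.76, 11.27 and 9.31. Srebf2, the factor that drives these genes, had 9.83, 9.65 and 9.09, a range under 1.

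The promoters of such genes are known to hold sterol elements bound by Srebf factors and CCAAT boxes bound by NF-Y. Promoter windows, 250 bases before to 50 after the start, came from RefSeq on GRCm38.p6 for 9887 genes of the array. Of these genes 1949 had several windows, and a gene counted once if any of its windows held the motif. A CCAAT box, CCAAT on either strand, lay in 16 of 17 cholesterol genes with a window and in 42.3% of all 9887 genes. The sterol element TCACNCCAC lay in 1 of the 17, Hmgcs1, and in 1.50% of all. Hmgcs1 is shown as the member with that element and Idi1 as another member with CCAAT boxes, with matches on either strand in capitals. Hmgcs1 lies at chr13:119690101-119690400 on the + strand, with 1 sterol element and 4 CCAAT boxes, and Idi1 at chr13:8885356-8885655 on the + strand, with 2 CCAAT boxes.
Hmgcs1: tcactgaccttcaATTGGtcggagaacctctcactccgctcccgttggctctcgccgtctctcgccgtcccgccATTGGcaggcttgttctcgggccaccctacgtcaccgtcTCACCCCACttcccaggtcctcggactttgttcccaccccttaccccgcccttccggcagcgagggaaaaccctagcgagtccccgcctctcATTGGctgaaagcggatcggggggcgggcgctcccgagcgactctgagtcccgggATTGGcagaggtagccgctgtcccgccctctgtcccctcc
Idi1: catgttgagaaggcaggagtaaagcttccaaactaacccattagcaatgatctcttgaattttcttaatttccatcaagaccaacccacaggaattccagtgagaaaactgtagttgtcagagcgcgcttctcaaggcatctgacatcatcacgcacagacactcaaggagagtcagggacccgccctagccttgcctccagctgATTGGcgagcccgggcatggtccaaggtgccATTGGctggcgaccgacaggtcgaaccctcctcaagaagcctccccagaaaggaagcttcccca
A match describes the letters and does not show binding, and in the 7 windows shown no match of one motif overlapped a match of another.

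Genes of mitosis were also lowest in experiment 3 of the untreated cells. All 44 were lower there than in experiment 1, with a median difference of -1.21, and 43 had their lowest level there. Mki67, a marker of dividing cells, had 10.88, 10.74 and 9.37. Ube2c, which hands ubiquitin to the anaphase complex, had 11.82, 11.63 and 10.60, and Cdc20, an activator of that complex, had 10.86, 10.78 and 9.58. Pttg1, securin, had 12.18, 11.74 and 10.71 and the cyclin Ccna2 had 10.33, 9.99 and 8.82. Experiments 1 and 2 lay close together in these genes, with a median difference of -0.29. The 36 S phase genes were all lower in experiment 3 than in 1 as well, with a median difference of -0.70. Pcna, the clamp of DNA polymerase, had 12.24, 11.68 and 11.65, and Rrm2 and Tk1, which supply nucleotides, had 10.71, 10.34 and 9.34 and 10.18, 9.51 and 8.59.

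Mitosis genes are known for the cell cycle element TTTGAA beside CCAAT boxes. TTTGAA lay in 27 of 36 mitosis genes with a window and in 15.4% of all genes with one. CCAAT lay in 28 of the 36 and in 42.3% of all genes with a window. Ube2c and Mki67 are shown because both were lowest in experiment 3 and hold both motifs, in capitals. Ube2c lies at chr2:164769679-164769978 on the + strand, with 1 TTTGAA and 6 CCAAT matches, 2 of which overlap on opposite strands, and Mki67 at chr7:135716330-135716629 on the − strand, with 2 and 3.
Ube2c: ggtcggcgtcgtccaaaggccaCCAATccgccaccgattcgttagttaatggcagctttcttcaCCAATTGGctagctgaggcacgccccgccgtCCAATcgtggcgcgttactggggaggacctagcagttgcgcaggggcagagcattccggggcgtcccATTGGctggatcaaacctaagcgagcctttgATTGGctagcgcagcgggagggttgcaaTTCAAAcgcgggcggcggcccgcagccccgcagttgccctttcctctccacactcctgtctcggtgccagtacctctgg
Mki67: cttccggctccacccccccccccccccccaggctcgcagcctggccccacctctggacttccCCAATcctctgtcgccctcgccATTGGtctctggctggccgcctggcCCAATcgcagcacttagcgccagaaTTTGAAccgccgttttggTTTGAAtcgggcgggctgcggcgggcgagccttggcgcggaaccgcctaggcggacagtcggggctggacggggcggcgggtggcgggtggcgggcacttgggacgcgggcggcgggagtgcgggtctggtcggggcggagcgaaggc

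The chemokine and inflammation genes differed the other way. Of the 18 with a range of at least 1, 15 were highest in experiment 3, 2 were lowest there and 5 were lowest in experiment 2. Lcn2, a secreted siderophore-binding protein of the acute phase, had 4.21, 6.35 and 10.40, below the reference in experiment 1. Saa3, an acute phase protein, had 5.11, 5.91 and 9.60, and the collagenase Mmp13 had 4.28, 4.36 and 9.88. The neutrophil chemokine Cxcl1 had 8.15, 9.16 and 12.16, Ccl2 for monocytes had 9.49, 10.20 and 11.22 and Ccl20 had 6.19, 8.70 and 9.29. In Mmp13 experiments 1 and 2 were both under the reference, whereas in Ccl20 experiments 2 and 3 stood together above 1. S100a8 had 8.16, 5.84 and 9.26 and its partner S100a9 had 5.38, 4.80 and 8.88, both lowest in experiment 2. The alarmin Il33 went against the group with 9.81, 9.62 and 7.77, lowest in experiment 3. Of 22 leukocyte and Kupffer cell markers 3 were highest in experiment 3 and 14 lowest there, against 29.9% and 41.3% of all genes. Of these 22, 21 lay no higher than the median gene and their median range was 0.27, so most of these orders rest on small differences of dim signals. Cd68, given above, was highest in experiment 3 and the only one with a range of at least 1, and Ptprc had 3.34, 3.25 and 3.02. The part of such cells in the inflammation genes was not tested.

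Inflammation genes are known targets of NF-κB, whose sites were searched as GGG, any 2 bases and TTTCC on either strand. This motif lay in 8 of 28 genes of the list with a window and in 1.99% of all genes with one. Cxcl1 and Ccl20 are shown as chemokine promoters that hold it, in capitals. Cxcl1 lies at chr5:90890995-90891294 on the + strand, with 2 matches, and Ccl20 at chr1:83116516-83116815 on the + strand, with 1.
Cxcl1: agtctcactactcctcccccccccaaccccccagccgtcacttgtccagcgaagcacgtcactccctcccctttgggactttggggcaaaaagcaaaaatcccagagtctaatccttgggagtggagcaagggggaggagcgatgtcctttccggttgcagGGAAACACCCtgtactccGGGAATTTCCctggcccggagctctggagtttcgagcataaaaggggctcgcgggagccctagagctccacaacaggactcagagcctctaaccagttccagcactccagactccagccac
Ccl20: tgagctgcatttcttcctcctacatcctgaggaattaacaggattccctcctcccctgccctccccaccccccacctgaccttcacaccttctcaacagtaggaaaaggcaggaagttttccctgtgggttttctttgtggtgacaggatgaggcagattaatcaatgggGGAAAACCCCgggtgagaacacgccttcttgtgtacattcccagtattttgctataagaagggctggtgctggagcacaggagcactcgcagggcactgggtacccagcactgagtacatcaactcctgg

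Several metal-binding, hypoxia and immediate early genes were lowest in experiment 1. For comparison, of all 611 genes with a range of at least 1, 206 were lowest in experiment 1, 261 highest in 3 and 267 lowest in 3. Of the 12 such genes of glutathione and oxidative stress, 6 were lowest in experiment 1 and 3 lowest in 3. Another count, 5 highest in experiment 3, was near the share of all variable genes. The metallothioneins Mt2 and Mt1, which bind zinc and copper, had 6.55, 9.16 and 11.09 and 10.08, 11.63 and 12.35. Txnip, an inhibitor of thioredoxin, had 7.12, 9.52 and 9.53. Of the 13 hypoxia genes with a range of at least 1, 11 were lowest in experiment 1 and 8 highest in 3. Bnip3, which acts in mitochondrial clearance, had 7.96, 10.24 and 9.94, P4ha1, a collagen hydroxylase subunit, had 6.82, 8.58 and 8.81, and Ndrg1 had 11.19, 12.00 and 12.67. In Bnip3 and Txnip experiments 2 and 3 were alike and experiment 1 was lower, while in Mt2 all 3 were apart. All 7 immediate early genes with a range of at least 1 were lowest in experiment 1, among them Dusp1 (7.64, 9.44 and 10.71), a phosphatase that ends MAP kinase signals, and the factors Atf3 (5.64, 7.09 and 8.64) and Jun (4.76, 5.71 and 8.36).

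The hypoxia element ACGTG lay in 20 of 27 genes of the hypoxia list with a window and in 26.9% of all. The lists were chosen by known function, and a link of motifs to differences between experiments was not tested. Of 498 genes with a range of at least 1 and a window, 27.7% held ACGTG, 18.1% TTTGAA and 48.2% CCAAT. The NF-κB motif lay in 3.21% of them and the sterol element in 6. CCAAT also lay in 23 of 33 genes with a window of the unfolded protein list, where experiment 3 was mostly highest. Bnip3, shown for its difference between experiments, lies at chr7:138909457-138909756 on the − strand, with a palindrome that counts as 2 matches, in capitals.
Bnip3: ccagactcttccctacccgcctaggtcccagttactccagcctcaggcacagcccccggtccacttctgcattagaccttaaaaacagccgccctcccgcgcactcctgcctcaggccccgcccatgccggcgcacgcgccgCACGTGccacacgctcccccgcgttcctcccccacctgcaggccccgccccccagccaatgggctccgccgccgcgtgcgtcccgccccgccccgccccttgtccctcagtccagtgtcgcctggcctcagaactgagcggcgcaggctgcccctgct

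Smaller shifts ran through other lists. Of 37 genes of the unfolded protein and ATF4 response 29 were highest in experiment 3, against 29.9% of all genes, and 5 had a range of at least 1, or 0 without experiment 3. Hspa5, the chaperone of the endoplasmic reticulum, had 12.70, 13.13 and 13.47 and the disulphide isomerase Pdia4 had 7.51, 7.89 and 9.29. Of 39 interferon response genes 5 had a range of at least 1, and Mx1, an antiviral GTPase, was highest in experiment 1 with 7.32, 5.02 and 4.40. The fatty acid enzymes Elovl6 and Scd2 were lowest in experiment 3, with 9.22, 8.07 and 6.80 and 13.13, 13.15 and 11.94. Tfrc, the transferrin receptor for iron uptake, had 8.08, 11.30 and 11.32, lowest in experiment 1, and its other 2 probe sets were lowest there too.

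Single probe sets of some genes differed sharply while another probe set of the same gene did not. The probe set used for Rpl27a, a ribosomal protein, had 9.29, 8.73 and 5.80, lowest in experiment 3, and its second, dim probe set had 3.66, 3.79 and 3.66. Sod1, cytosolic superoxide dismutase, had 12.63, 12.89 and 10.68 on one probe set and 7.25, 7.16 and 7.09 on the other. For Actb, a second probe set had 9.89, 10.38 and 7.85, lowest in experiment 3, whereas the brighter one was lowest in experiment 2. Of the 285 variable genes with several probe sets, 168 (58.9%) had another probe set with the same highest and lowest experiment, against 1776 of 4956 (35.8%) among all such genes.

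The 138 genes lowest in experiment 2 with a range of at least 1 had their low values on the array with the highest β-actin 3′ minus 5′ signal. They lay, by their choice, at a median of 0.16, -0.69 and 0.59 around their untreated mean, in the arrays whose β-actin 3′ minus 5′ signal was 0.227, 0.873 and 0.197. The long nuclear RNA Malat1 had 10.09, 8.60 and 10.88, and Crim1, a membrane regulator of growth factors, had 8.56, 6.14 and 9.23. Ptgs2, cyclooxygenase, had 7.94, 6.57 and 9.19. The same 138 genes had medians of 0.25, -0.44 and -0.03 in the HGF/SF1 arrays, whose β-actin values were 0.299, 0.748 and 0.610, and of 0.02, 0.13 and 0.22 in the antibody arrays, with β-actin values of 0.228, 0.372 and 0.244. For comparison, the median of all genes was within 0.03 of 0 on each array. The part of RNA quality in these genes was not tested.

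The treated dishes of the same experiments were used to see which of these differences recurred in samples that did not choose the genes. In the 6 treated arrays, limma's F test of the experiment, with condition as a second term, called 0 of 22626 probe sets at an adjusted p under 0.05 and 3011 at an unadjusted p under 0.05. Among genes, 266 of the 611 variable ones (43.5%) passed the unadjusted threshold, against 11.4% of all genes, which include dim genes that rarely vary. The F test asks only whether experiments differ, so a gene can pass it without keeping the untreated order. The same highest and lowest experiment was found for 310 (50.7%) in the HGF/SF1 arrays, against 30.3% of all genes, and for 240 (39.3%) in the antibody arrays, against 23.8%. With all 9 arrays in the fit 955 probe sets passed the adjusted threshold, and 158 of the 611 genes did (25.9%), against 3.12% of all genes, but these include the arrays that chose the genes. Experiments had 1 array per condition, so the error in these fits is how far the differences between experiments differed between conditions. An unequal answer to an agent in different experiments therefore counts as error and raises the p-values. The labels do not say that dishes were cultured apart, so the spread may also be technical.

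Cholesterol genes were also low in experiment 3 with HGF/SF1. The median difference of experiment 3 from 1 was -1.97 in HGF/SF1 arrays and -0.15 in antibody arrays, against -1.88 in untreated cells, and that of experiment 2 from 1 was -1.07 and -0.05, against -0.49. Of the 21 genes 17 and 8 had the same highest and lowest experiment as in untreated cells, against 30.3% and 23.8% of all genes. Hmgcs1 had 12.00, 10.76 and 9.69 with HGF/SF1 and 12.12, 12.00 and 10.99 with the antibody. The difference between the conditions was not tested. In the treated arrays 4 of the 21 genes passed the unadjusted threshold, against 11.4% of all genes.

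Mitosis genes did not keep their order. Their median difference of experiment 3 from 1 was 0.06 with HGF/SF1 and -0.53 with the antibody, and experiment 2 lay 0.75 and 0.57 above experiment 1. Of the 44 genes 33 passed the unadjusted threshold in the treated arrays, against 11.4% of all genes. The order of the untreated cells was kept by 6 with HGF/SF1 and 4 with the antibody, against 30.3% and 23.8% of all genes. Mki67 had 9.56, 10.59 and 9.38 with HGF/SF1 and 10.79, 11.53 and 10.28 with the antibody, highest in experiment 2 in both. The S phase genes differed by 0.61 and -1.11, and 3 of 36 had the untreated order with HGF/SF1 and 23 with the antibody. Of the 36, 0 passed the unadjusted threshold of the F test, in which such unlike differences count as error.

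**Figure D4:**
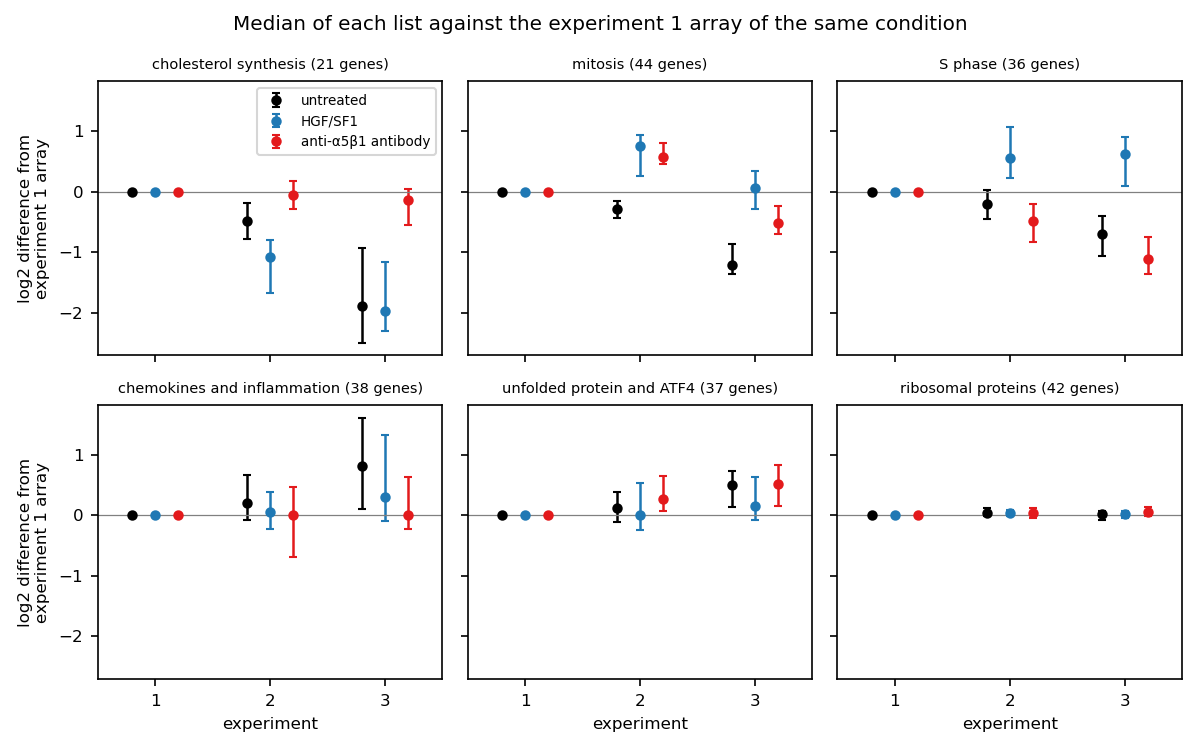
Median difference of a list's genes from the experiment 1 array of the same condition, in log2 units, for untreated, HGF/SF1 and antibody arrays, with bars from the lower to the upper quartile of the genes. Cholesterol synthesis lies at -1.88 and -1.97 in experiment 3 of untreated and HGF/SF1 cells and at -0.15 with the antibody, and mitosis is below experiment 1 in experiment 3 of untreated cells (-1.21) but not with HGF/SF1 (0.06).

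Among the inflammation genes 18 of 38 had the same highest and lowest experiment with HGF/SF1, against 30.3% of all genes. With the antibody 9 did, near the 23.8% of all genes, and 7 passed the unadjusted threshold, against 11.4% of all genes. Lcn2 had 4.55, 6.07 and 10.41 with HGF/SF1 and 8.20, 10.45 and 11.37 with the antibody, highest in experiment 3 in each condition. Cxcl1 had 7.73, 9.04 and 11.84 with HGF/SF1, in the order of the untreated cells, but 12.17, 11.49 and 11.72 with the antibody, where the 3 experiments lay close together. Mt2 had 5.87, 6.81 and 10.92 with HGF/SF1 and 10.79, 10.28 and 10.49 with the antibody. For both genes the antibody array lay above the untreated array in experiments 1 and 2 and below it in experiment 3, and these differences were not tested. The probe sets with the smallest p included those of Rpl27a, with 9.01, 9.02 and 5.77 and 8.99, 9.38 and 6.13, and Fanci, a DNA repair gene, with 8.84, 6.83 and 5.46 in untreated cells and 8.65, 6.72 and 5.79 and 8.22, 6.52 and 5.74 in treated ones, both lowest in experiment 3 in all conditions (limma F test, adjusted p = 0.24 for both). Met was lowest in experiment 2 in every condition, with 9.93, 9.0 and 9.36 and 9.93, 9.07 and 9.39 in treated cells (limma F test, adjusted p = 0.25). The probe set used for Hnf4a was lowest in experiment 3 in every condition, with 10.09, 9.76 and 8.64 and 9.22, 8.78 and 8.23. Its other probe sets did not all share this. The dimmest was lowest in experiment 2 in every condition, with 7.36, 5.91 and 6.48 and 6.69, 5.84 and 6.34 in treated cells.

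**Figure D5:**
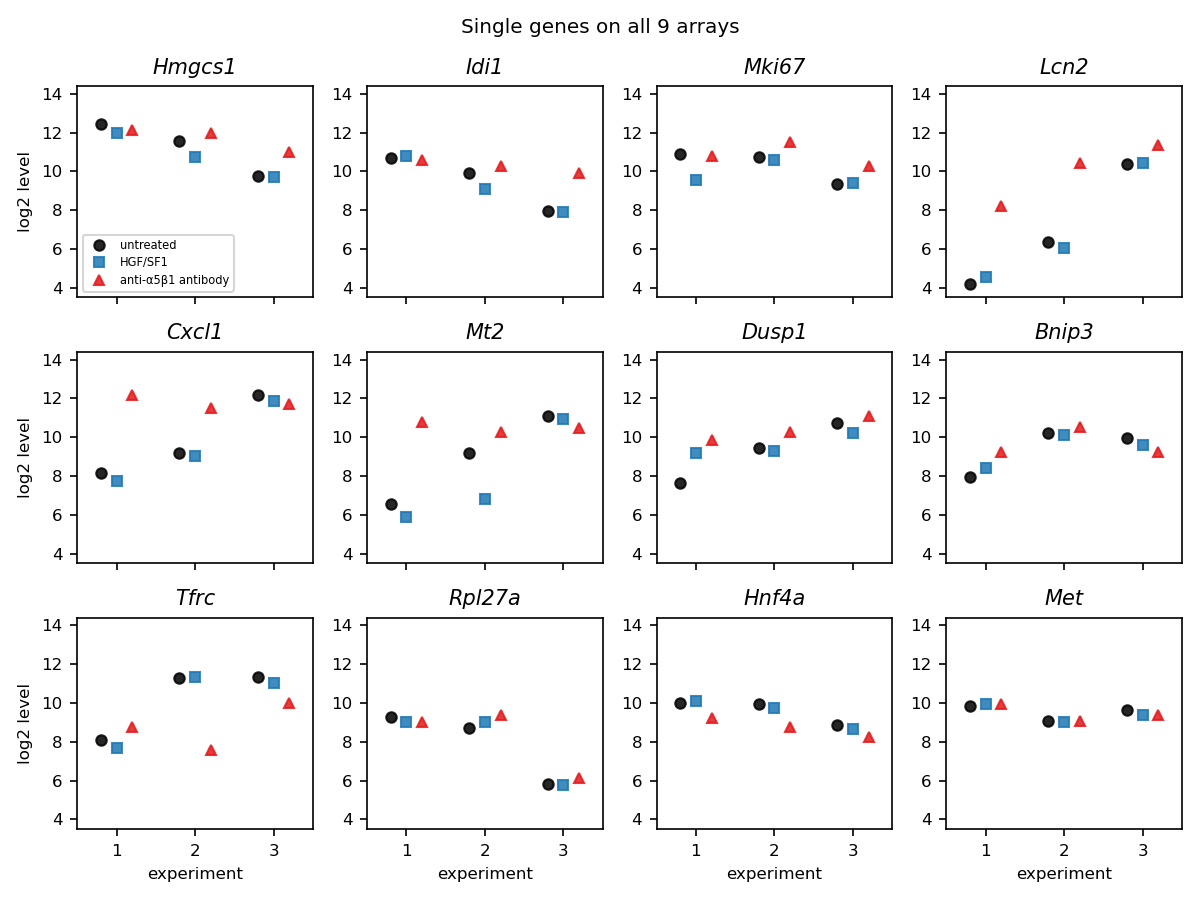
Log2 level of 12 genes on all 9 arrays, by experiment, with a colour for each condition. On the probe sets drawn, Hmgcs1, Rpl27a and Hnf4a are lowest in experiment 3 in each condition and Met in experiment 2. Cxcl1 and Mt2 differ between experiments in untreated and HGF/SF1 cells but lie close together with the antibody.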

How the data were processed

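RNA of MLP29 cells was measured on 9 Affymetrix Mouse430A_2 arrays, 3 untreated, 3 with HGF/SF1 and 3 with the antibody, 1 of each per experiment. Each deposited value is on the log2 scale and summarises the probes of a probe set, as the authors computed it in affylmGUI with rma background correction. The normalization between arrays and the summary per probe set are not given in the sources used here, and the values were used as deposited. For arrays, the number of 3 limits the precision.

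Samples were grouped by their labels. Of 22690 probe sets, 64 controls were left out. The platform annotation names 1 gene for 20380 of the other 22626, of which 20351 have a RefSeq symbol (GRCm38.p6). The 691 that name several genes and the 1555 that name none were used only in the fit. A gene took its brightest untreated probe set naming it alone, and 4956 of 12393 genes had several. Means and SDs (n = 3) and ranges, highest minus lowest array, were computed in Python 3.11.15 with pandas 2.3.3 and numpy 2.4.6. A range of at least 1 counted as variable. The experiment was tested in the 6 treated arrays with limma 3.58.1 in R 4.3.3 (lmFit and eBayes, condition and experiment additive, F test, Benjamini-Hochberg over 22626 probe sets, threshold 0.05). The script was tested on simulated data.

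The members and the 41 lists (1157 measured genes) were chosen with earlier results of these data known. Named were the markers, the 30 brightest genes, and in each list the 6 brightest, the 3 dimmest and the 4 of largest range, with the 20 genes of largest range, the 15 of smallest F test p and the 10 of smallest range above the median gene. Other marker genes stand in the fixed lists of cell types, and Foxa1, Gata6, Hhex, Onecut1, Mst1r, Egfr, Srebf2, Malat1 and Ptgs2 were chosen after their values were seen. Some genes of the lists are not reported here. Counts of promoter motifs searched both strands. Alternatives were centred arrays, quantile normalization, the median over the probe sets of a gene, genes or probe sets above the median level, no probe sets with the suffix _x_at or _s_at, and leaving out each array.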

Additional observations from a re-analysis of the deposited data

How the results depend on the processing

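The 611 variable genes numbered 630 with centred arrays, 616 after quantile normalization, 616 with the median over probe sets, 613 without probe sets of suffix _x_at or _s_at and 426 above the median gene, and from 158 to 414 when 1 array was left out. When 1 array was left out the counts ran from 1 to 15 for cholesterol synthesis, 1 to 31 for mitosis, 1 to 10 for S phase, 7 to 16 for inflammation, 2 to 8 for hypoxia, 4 to 5 for immediate early genes and 0 to 4 for the unfolded protein response, which numbered 8 without suffixed probe sets. The median gene was at 6.57, at 6.01 with the median over probe sets, and from 6.54 to 6.63 with 1 array left out. Of 30 marker levels recomputed, 28 moved by no more than their SD, but most of them could not have moved further. Leaving out 1 array cannot move such a mean by more than its SD. Krt18, Krt19, Met and Alb have 1 probe set each, so the median over probe sets leaves them unchanged. The count therefore says little about stability. Krt8, which has several probe sets, moved from 13.85 to 13.84 with their median. Afp, whose SD is 0, moved to 3.77 with the median over probe sets and to 4.06 with centred arrays. The cause of these changes was not tested.

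Probe sets passing limma's F test in the treated arrays numbered 0, and 955 with all 9 arrays, and from 0 to 1338 when 1 array was left out, the 2 highest counts being 1338 (experiment 1 of HGF/SF1 left out) and 1319 (experiment 1 of the antibody left out). Those at an unadjusted p under 0.05 numbered 3011, 1591 above the median brightness, 5217 with all 9 arrays and from 1347 to 6056 when 1 array was left out. With 2 residual degrees of freedom the fit rests on few arrays. No paired analysis was possible because no treatment was compared and the experiment, which the replicate numbers name, is itself the term tested.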
